A study of Mus musculus with 6 samples.

Results

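The mitochondrial chromosome of the mouse was represented on the arrays by 30 transcript clusters, out of 65770 in all. Membership follows from the identifier of a cluster, which begins with TC0M. The arrays came from primary cultures labelled as microglia, the resident phagocytes of the brain, grown from newborn (P0) CD1 mice, an outbred strain without a transgene in the labels. Each culture pooled 5 pups, and the 3 cultures carry the numbers 3, 4 and 6. From every culture 1 array was made after 6 h at 1% oxygen (hypoxia) in a hypoxia chamber and 1 array after 6 h at 21% oxygen (normoxia), which gives 3 arrays per group. The question set by this design is which transcripts differ between cells of the same cultures kept at low and at atmospheric oxygen.

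Mitochondrial DNA is a small circular genome that is read on both strands by its own polymerase, POLRMT, which starts at a few promoters with the help of TFAM and TFB2M. The long precursors contain nearly all genes of a strand and are cut apart at the tRNAs that lie between most of the other genes. The products are the rRNAs of the mitochondrial ribosome, the tRNAs for translation inside the organelle, and mRNAs for core subunits of complexes I, III and IV of the respiratory chain and of ATP synthase. Respiration by these complexes consumes most of the oxygen that a cell takes up, and microglia can draw on both respiration and glycolysis for energy.

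The annotation of the array lists genes for 11 of the 30 clusters, and the other 19 are not listed and stay unnamed here. Of the 37 genes annotated on the mitochondrial chromosome of GRCm38, 16 had a listed cluster. These were 13 of 13 protein-coding genes, 2 of 2 rRNA genes and 1 of 22 tRNA genes. Several genes share a cluster, so mt-Rnr2 (the large rRNA) is measured together with ND1, ATP8 with ATP6 and COX3, ND4 with ND4L, and ND5 with CYTB. The strand of a cluster is given neither in the value table nor in the annotation, and so the clusters were not split by strand. ND6 is the protein-coding gene known to be read from the light strand. Values are log2 intensities as deposited after RMA, a method that corrects background, equalises the arrays and summarises the probes of a cluster. Larger differences are also given as the percentage of the normoxia signal that remained in hypoxia. Intensities of different clusters come from different probes and were not compared as amounts of RNA.

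The signal of the mitochondrial genome was lower in hypoxia almost throughout. The log2 fold change, hypoxia minus normoxia, was below 0 for 29 of 30 clusters, against 38.7% of all transcript clusters, and its median was -0.53, against 0.04 for all transcript clusters. Of the 30 clusters, 18 lay below -0.5 and 8 below -1, where the shares of all clusters were 0.502% and 0.0228%. The 7 most negative fold changes among all 65770 clusters all belonged to the mitochondrial chromosome. In 26 of 30 clusters hypoxia was lower in each of the 3 cultures, and in 0 of 30 it was higher in each (13.8% and 23.6% of all clusters). In 23 of 30 the 3 hypoxia arrays all lay below the 3 normoxia arrays, and in 0 of 30 they all lay above (5.86% and 8.49% of all clusters).

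**Figure D1:**
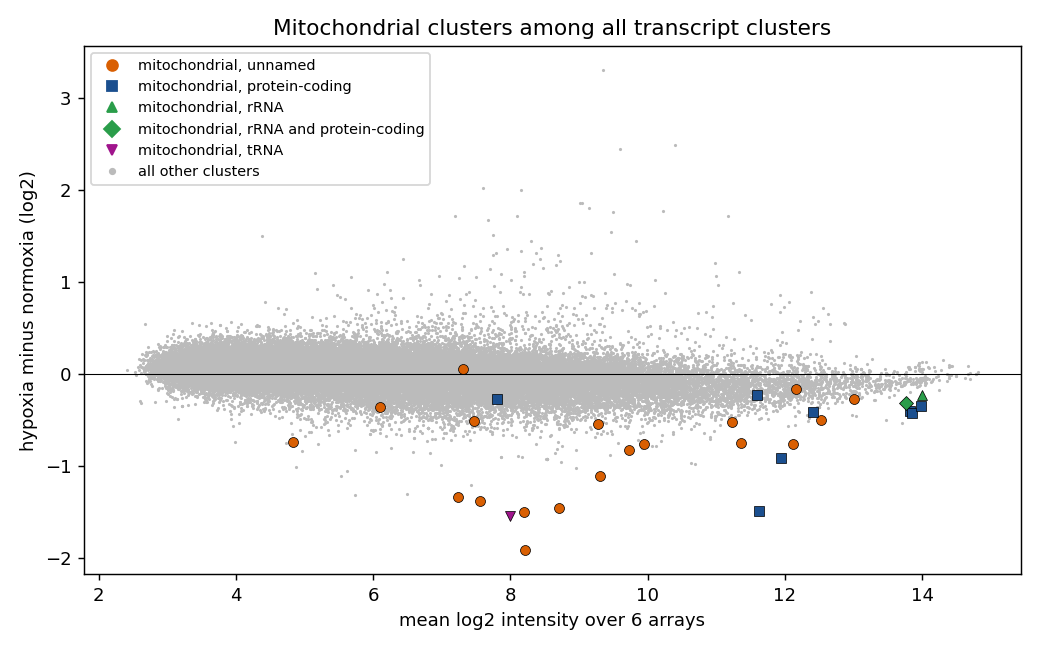
Each point is a transcript cluster, with its mean log2 intensity over the 6 arrays on the horizontal axis and its log2 fold change, hypoxia minus normoxia, on the vertical axis. Of the 30 mitochondrial clusters (large symbols by class of listed gene), 29 lie below 0, and the 7 lowest points of the plot are among them.

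Few of these differences passed the test of single clusters, which rests on 3 arrays against 3. At an adjusted p under 0.05 from limma, 3 of the 30 clusters were lower and 0 were higher, where 0.0106% and 0.105% of all clusters were lower and higher. At an unadjusted p under 0.05 from limma, 25 of 30 were lower and 0 higher, against 4.26% lower and 4.47% higher among all clusters. Both arrays of a culture come from the same pooled pups, so the fit was repeated with the culture as a block. It called 1 of 30 lower and 0 higher at an adjusted p under 0.05 (0.00760% and 0.111% of all clusters), and 26 of 30 lower and 0 higher unadjusted (6.11% and 6.79% of all clusters).

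The 3 clusters that passed are unnamed. TC0M00000020 had a log2 intensity of 8.80, 8.81 and 8.65 under hypoxia in cultures 3, 4 and 6, against 9.84, 9.73 and 10.03 under normoxia. The groups lay far apart, and all 3 hypoxia arrays were within a narrow band. Hypoxia minus normoxia came to -1.11 (standard error, SE, 0.10; limma adjusted p = 0.00717), a signal at 46.3% of normoxia, and its adjusted p with the culture as a block was 0.0259. TC0M00000014 stood at 9.58, 9.66 and 9.43 in hypoxia, against 10.26, 10.30 and 10.41 in normoxia, with a log2 fold change of -0.77 (SE 0.09; limma adjusted p = 0.0298). TC0M00000021 stood at 7.79, 7.56 and 7.0 in hypoxia, against 8.96, 8.71 and 9.16 in normoxia, with a log2 fold change of -1.50 (SE 0.20; limma adjusted p = 0.0464). The groups did not overlap for either of them, and culture 6 had the lowest hypoxia value and the highest normoxia value in both. With the block, the adjusted p from limma was 0.0653 for TC0M00000014 and 0.0788 for TC0M00000021, so both calls ended. Leaving out any 1 array also ended both calls, at adjusted p-values of 0.0803 to 0.186 for TC0M00000014 and 0.0595 to 0.244 for TC0M00000021 from limma, and TC0M00000020 kept its call at 0.0175 to 0.0463.

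ND3 encodes a small membrane subunit of complex I, the NADH dehydrogenase through which most electrons enter the respiratory chain. Its coordinates on the mitochondrial chromosome (MT) are 9459 to 9806 in GRCm38. Cultures 3, 4 and 6 gave log2 intensities of 11.37, 10.80 and 10.46 under hypoxia, against 12.42, 12.23 and 12.45 under normoxia. The normoxia arrays were close together and the hypoxia arrays were spread, with culture 6 the lowest. The mean was 10.88 ± 0.46 (SD, n = 3) in hypoxia and 12.37 ± 0.12 (SD, n = 3) in normoxia, a log2 fold change of -1.49 (SE 0.20), or a signal at 35.7% of normoxia. This had an adjusted p of 0.0537 from limma over all transcript clusters and of 0.0540 with the culture as a block. Over 1 cluster per named gene, a smaller number of tests, the adjusted p from limma was 0.0423, so the side of the threshold depended on which clusters were tested. It also depended on 1 array: without the hypoxia array of culture 3 the limma adjusted p was 0.0161 for ND3, in a range of 0.0161 to 0.273 over all arrays left out in turn.

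ND2, another core membrane subunit of complex I, lies on MT from 3914 to 4951. It stood at 11.84, 11.41 and 11.18 in hypoxia, against 12.44, 12.31 and 12.45 in normoxia. All 3 hypoxia arrays were below all normoxia arrays, again in the order of cultures 3, 4 and 6. The log2 fold change was -0.92 (SE 0.16; limma adjusted p = 0.136, 0.0942 with the block and 0.0340 without the hypoxia array of culture 3). ND6, on MT from 13552 to 14070, also encodes a complex I subunit. It stood at 11.62, 11.52 and 11.28 in hypoxia and at 11.59, 11.73 and 11.81 in normoxia. Its groups overlapped, since the hypoxia array of culture 3 was slightly above the normoxia array of the same culture. The log2 fold change was -0.23 (SE 0.11; limma adjusted p = 0.590), so the clusters that list only one complex I gene ranged from -1.49 to -0.23.

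The genes for complex IV, cytochrome c oxidase, which passes electrons to oxygen, had smaller differences than ND2 and ND3. COX1, the catalytic subunit, lies on MT from 5328 to 6872 and stood at 12.45, 12.29 and 11.87 in hypoxia, against 12.76, 12.61 and 12.48 in normoxia. COX2, which takes electrons from cytochrome c, lies on MT from 7013 to 7696 and stood at 7.77, 7.65 and 7.60 in hypoxia, against 7.99, 7.94 and 7.88 in normoxia. For both genes the groups did not overlap, and the hypoxia and the normoxia arrays followed the same order of cultures. The log2 fold change was -0.42 for COX1 (SE 0.15; limma adjusted p = 0.530) and -0.27 for COX2 (SE 0.08; limma adjusted p = 0.511).

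The clusters that list several genes, with those of the rRNAs, were above the 97th percentile of brightness, as were 15 of the 30 clusters. The cluster of ND4 and ND4L, 2 more complex I subunits, stood at 13.91, 13.60 and 13.39 in hypoxia, against 14.10, 14.05 and 14.04 in normoxia. The cluster of ND5, a complex I subunit, and CYTB, the cytochrome b of complex III, stood at 14.02, 13.77 and 13.62 in hypoxia, against 14.19, 14.17 and 14.11 in normoxia. The cluster of ATP8 and ATP6, subunits of ATP synthase, and COX3, a subunit of complex IV, stood at 13.95, 13.63 and 13.30 in hypoxia, against 14.08, 13.99 and 14.03 in normoxia. In all 3 clusters the groups did not overlap, the normoxia arrays differed by little and the hypoxia arrays fell into the order of cultures 3, 4 and 6. Their log2 fold changes were -0.43, -0.35 and -0.41 in the same order, with standard errors of 0.13, 0.11 and 0.15 and adjusted p-values of 0.503, 0.511 and 0.530 from limma.

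The rRNA genes had the smallest differences of the listed classes. mt-Rnr1, the small rRNA of the mitochondrial ribosome, lies on MT from 70 to 1024 and stood at 14.09, 13.85 and 13.74 in hypoxia, against 14.18, 14.08 and 14.09 in normoxia. The cluster of mt-Rnr2, on MT from 1094 to 2675, and ND1, a complex I subunit on MT from 2751 to 3707, stood at 13.88, 13.55 and 13.40 in hypoxia, against 13.95, 13.97 and 13.87 in normoxia. In both clusters the hypoxia array of culture 3 reached into the range of the normoxia arrays, while those of cultures 4 and 6 lay below it. The log2 fold changes were -0.22 (SE 0.10; limma adjusted p = 0.588) and -0.32 (SE 0.12; limma adjusted p = 0.546).

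The only tRNA gene with a listed cluster was mt-Tk, the tRNA for lysine, named TrnK in GRCm38 and located on MT from 7700 to 7764, between COX2 and ATP8. It stood at 7.56, 7.27 and 6.83 in hypoxia, against 8.63, 8.43 and 9.24 in normoxia. The groups lay far apart, with the lowest hypoxia and the highest normoxia value in culture 6. Its log2 fold change of -1.55 (SE 0.24; limma adjusted p = 0.0881, and 0.128 with the block) was the second most negative of all 65770 clusters. Its neighbours in the genome had log2 fold changes of -0.27 (COX2) and -0.41 (the cluster of ATP8, ATP6 and COX3).

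**Figure D2:**
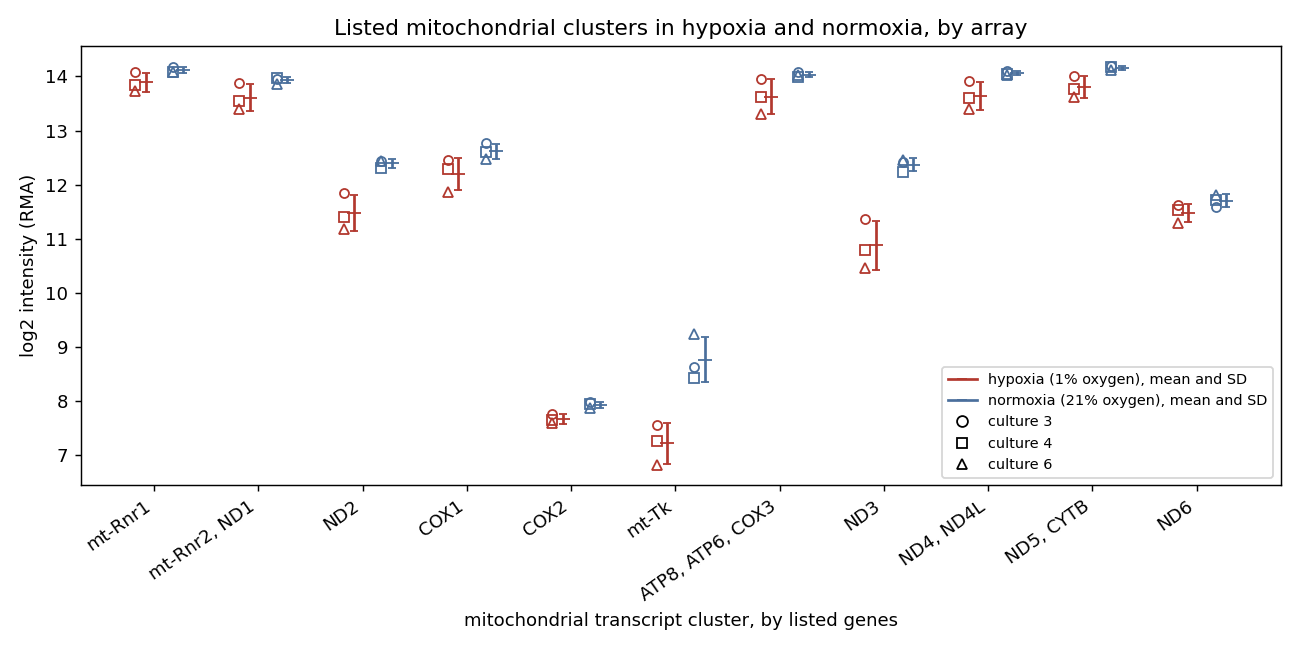
Log2 intensity after RMA (vertical axis) of the 11 mitochondrial clusters with listed genes (horizontal axis, in the order of their identifiers), for 3 hypoxia and 3 normoxia arrays each. Open symbols are single arrays by culture, bars are the mean ± SD of a group. The hypoxia mean lies below the normoxia mean in 11 of 11 clusters (38.7% of all clusters). All hypoxia arrays lie below all normoxia arrays in 8 (5.86% of all clusters).

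Among the 19 unnamed clusters, 18 had a negative log2 fold change (38.7% of all clusters), and the median was -0.76. In 15 of them all hypoxia arrays lay below all normoxia arrays (5.86% of all clusters). Over the 9 clusters that list a protein-coding gene the median was -0.41 and 9 of 9 were negative, and both clusters that list an rRNA gene were negative, with a mean of -0.27. One cluster, of mt-Rnr2 and ND1, counts in both classes. These class values are a description of probes on the same arrays, and the difference between classes was not tested. TC0M00000024 had the most negative fold change of all clusters on the arrays. It stood at 8.17, 7.36 and 6.22 in hypoxia, against 9.12, 9.10 and 9.27 in normoxia, so the normoxia arrays were nearly equal and the hypoxia arrays of the 3 cultures differed widely. The log2 fold change of -1.92 had a standard error of 0.40 and an adjusted p of 0.314 from limma (0.151 with the block).

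A few clusters hardly differed. TC0M00000029 was the exception to the common direction, at 7.11, 7.56 and 7.35 in hypoxia and 7.20, 7.23 and 7.42 in normoxia, with a log2 fold change of 0.05 (SE 0.12; limma adjusted p = 0.897). Only its hypoxia array of culture 4 stood above the normoxia arrays. TC0M00000019 stood at 12.29, 11.99 and 11.95 in hypoxia and at 12.25, 12.32 and 12.15 in normoxia, with a log2 fold change of -0.16 (SE 0.11; limma adjusted p = 0.679). The groups overlapped in both. The remaining 13 unnamed clusters ranged from -1.46 (TC0M00000012) to -0.28 (TC0M00000003), all of them negative, and in 11 of 13 all hypoxia arrays lay below all normoxia arrays (5.86% of all clusters). Their medians within cultures were -0.57, -0.32 and -1.15 in cultures 3, 4 and 6, and 0 of 13 passed at an adjusted p under 0.05 from limma (0.0106% of all clusters were lower), and 12 of 13 were lower at an unadjusted p under 0.05 (4.26% of all clusters).

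The size of the difference varied between cultures. Each culture has 1 array per condition, so an effect of the culture and variation of single arrays cannot be told apart. The median over the 30 clusters of the difference within a culture was -0.39 in culture 3, -0.41 in culture 4 and -1.05 in culture 6, where the medians over all transcript clusters were 0.00, 0.04 and 0.06. Hypoxia was lower for 28, 28 and 30 of 30 clusters in these cultures. Culture 6 had the most negative difference for 27 of 30 clusters, the lowest hypoxia value for 28 and the highest normoxia value for 21. The standard deviation between cultures was larger in hypoxia than in normoxia for 25 of 30 clusters, with medians of 0.25 and 0.11, and this was so for 64.9% of all transcript clusters, with medians of 0.13 and 0.09. Without culture 6 in a fit with the culture as a block, the median over the 30 clusters was -0.35 and 7 clusters passed, a choice made after the values were seen. Without culture 3 it was -0.64 and 0 passed, and without culture 4 it was -0.69 and 5 passed.

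**Figure D3:**
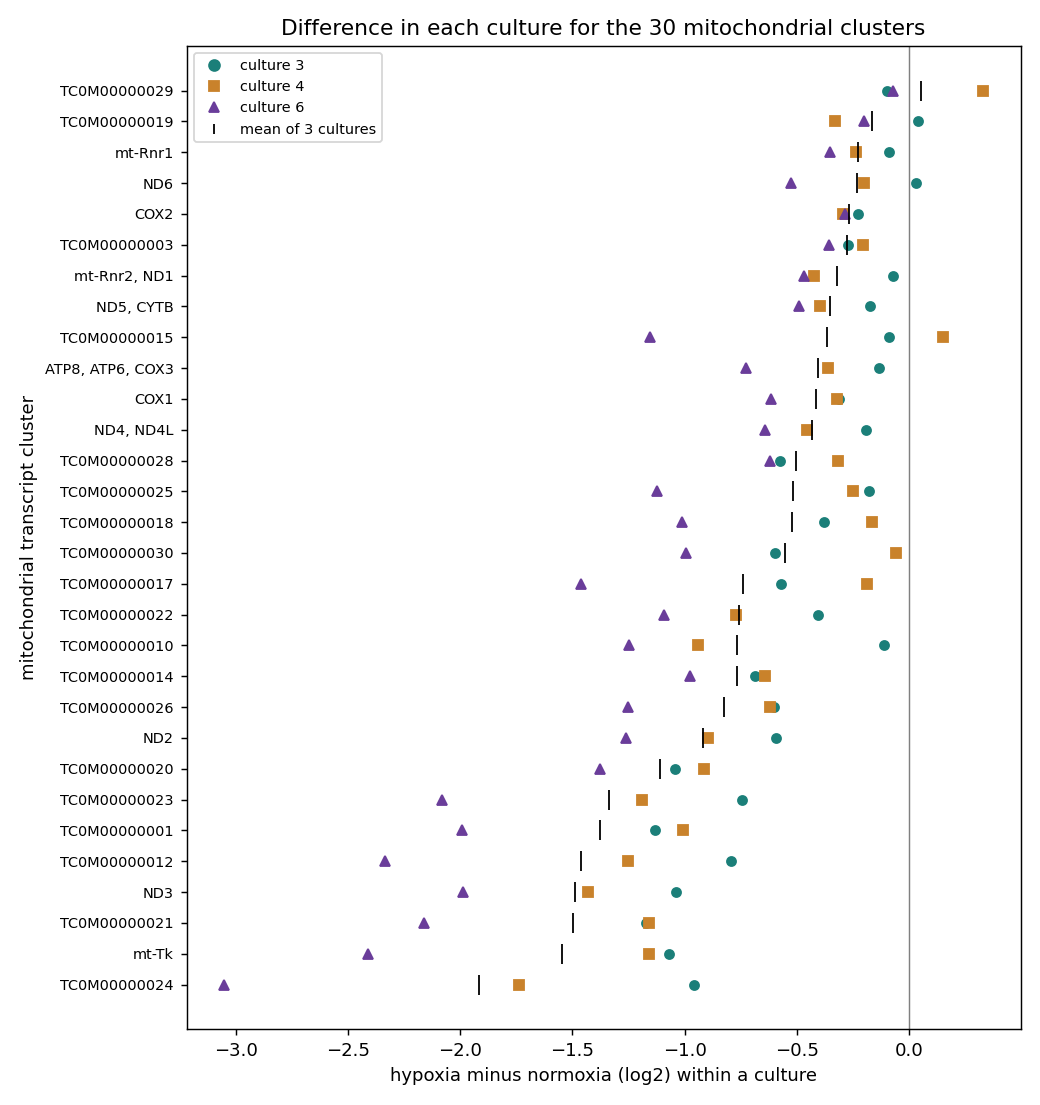
Difference between the hypoxia and the normoxia array of the same culture on the log2 scale (horizontal axis) for each of the 30 mitochondrial clusters (vertical axis, ordered by the mean difference, which a black tick marks). Points are cultures 3, 4 and 6, and culture 6 is farthest to the left in 27 of 30 clusters.

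The order of the clusters by size of difference was similar across cultures. Over the 30 clusters, differences correlated with Pearson's r of 0.75 between cultures 3 and 4, 0.82 between cultures 3 and 6, and 0.84 between cultures 4 and 6 (Spearman's rho 0.65, 0.79 and 0.69). These are descriptions over probes that share a genome and their arrays, not over replicates.

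The difference also varied with brightness. The 10 mitochondrial clusters with a mean log2 intensity of 12 or above, which include both rRNA clusters and all 4 clusters of several genes, had a median of -0.38. The 9 clusters with means of 9 up to 12 had a median of -0.77 and the 11 below 9 one of -1.34. Over the 30 clusters, mean intensity and log2 fold change correlated at r = 0.39 (rho = 0.38), as a description. Among all other transcript clusters, the median log2 fold change in classes of brightness lay between -0.13 (894 clusters from 11 up to 12) and 0.07 (9038 clusters below 4). The part of brightness in the differences between clusters was not tested further, and saturation of the brightest probes could not be read from these values.

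Nuclear DNA of the mouse carries old copies of mitochondrial sequence, and the arrays hold clusters for some of them. Gm10925 is annotated as a pseudogene on chromosome 1 of GRCm38 from 24613971 to 24614651, with ATP6 names among its synonyms and the same length of 681 bases as ATP6. It stood at 14.01, 13.64 and 13.32 in hypoxia, against 14.12, 14.05 and 14.13 in normoxia. Gm10222 is a pseudogene from 24612404 to 24612700 on the same chromosome, with the same length of 297 bases as ND4L. It stood at 13.77, 13.39 and 13.15 in hypoxia, against 14.06, 13.95 and 13.91 in normoxia. In hypoxia both fell into the order of cultures 3, 4 and 6. Every listed mitochondrial cluster did so too, and this order therefore does not tie them to a particular cluster. Within cultures 3, 4 and 6 the difference of Gm10925 was -0.11, -0.42 and -0.81. That of the cluster of ATP8, ATP6 and COX3 was -0.13, -0.36 and -0.73. Gm10222 had differences of -0.28, -0.56 and -0.76, and the cluster of ND4 and ND4L had -0.19, -0.46 and -0.64. The log2 fold changes were -0.45 for Gm10925 (SE 0.16; limma adjusted p = 0.524) and -0.54 for Gm10222 (SE 0.15; limma adjusted p = 0.496). The clusters next to these 2 in the numbering are not listed and were looked at after their values were seen. TC0100002077 had a log2 fold change of -0.50 (SE 0.14; limma adjusted p = 0.497) with hypoxia below normoxia on all arrays. TC0100002078, among the brightest clusters of the arrays, had one of -0.18 (SE 0.09; limma adjusted p = 0.623) with overlapping groups, and the dim clusters on either side, TC0100002074 and TC0100002079, had 0.07 and -0.18, also with overlap. Probe sequences were not used here, so signal of the nuclear copies and of the mitochondrial genes cannot be told apart.

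**Figure D4:**
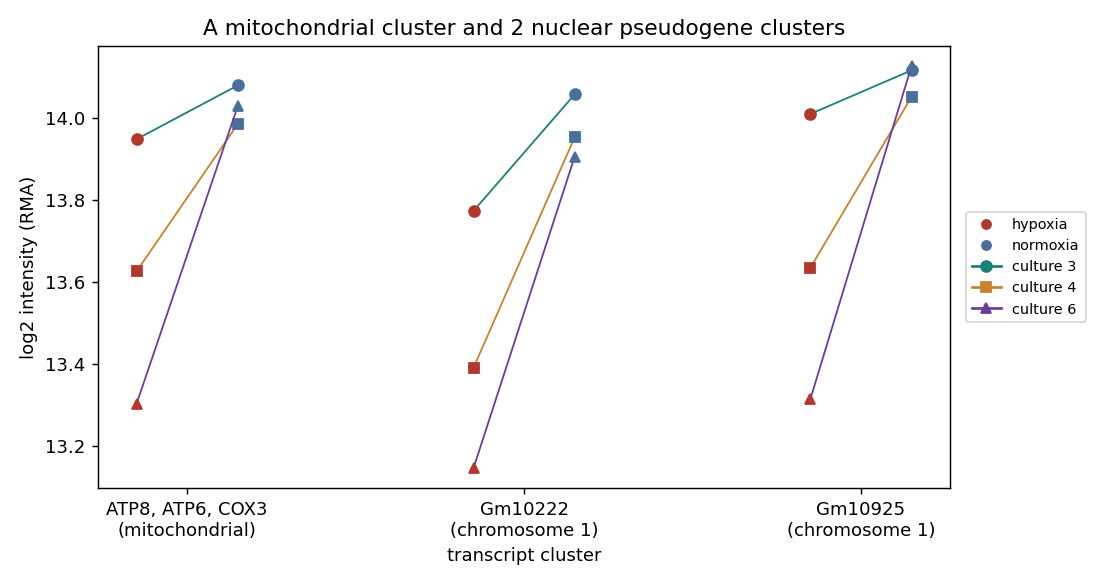
Log2 intensity after RMA (vertical axis) of the mitochondrial cluster of ATP8, ATP6 and COX3 and of the chromosome 1 pseudogene clusters Gm10222 and Gm10925 (horizontal axis), with the hypoxia array left of the normoxia array and a line for each culture. In all 3 clusters the line of culture 3 is the flattest and that of culture 6 the steepest. The cluster of ND4 and ND4L is not drawn.

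Most subunits of the same complexes are encoded in the nucleus. Of 67 such genes with a cluster on the array, 0 were lower and 0 higher at an adjusted p under 0.05 from limma, with or without the block. Shares over all clusters were 0.0106% and 0.105%, or 0.00760% and 0.111% with the block, so 0 of 67 says little here. At an unadjusted p under 0.05, 3 were lower and 1 higher, where 4.26% and 4.47% of all clusters were. With the block 7 were lower and 1 higher, against 6.11% and 6.79%. The 3 lower genes without the block, named after their values were seen, were Uqcrb (-0.25), Ndufv2 (-0.24) and Cox7c (-0.20). The higher gene was Ndufv3, an accessory subunit of complex I, at 0.28 (SE 0.08; limma adjusted p = 0.502), named after its value was seen. The log2 fold changes of the 67 genes ranged from -0.25 to 0.28 with a median of -0.11, and 60 of 67 were below 0 (38.7% of all clusters). That share covers clusters of every brightness, most of them dim. Clusters outside the mitochondrial chromosome had medians of 0.03 at means of 6 up to 8, -0.04 at 8 up to 9 and -0.07 at 9 up to 10. These medians were -0.10 at 10 up to 11 and -0.13 at 11 up to 12. The median of the 67 genes lay near those from 10 up to 12, but many of these genes were dimmer, with means below 9. A comparison at matched brightness was not made. By complex, the medians were -0.10 for complex I (32 genes), -0.12 for complex III (9 genes), -0.12 for complex IV (11 genes) and -0.12 for ATP synthase (15 genes). The within-culture medians of these 67 genes were -0.21, -0.04 and -0.09 in cultures 3, 4 and 6, and thus had another order than those of the mitochondrial clusters.

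The genes that transcribe, process and stabilise mitochondrial RNA or copy the genome are nuclear as well. Of 39 with a cluster, 0 were lower and 0 higher at an adjusted p under 0.05 from limma, with or without the block. At an unadjusted p under 0.05, 5 were lower and 2 higher, where 4.26% and 4.47% of all clusters were. With the block 10 were lower and 2 higher unadjusted, against 6.11% and 6.79% of all clusters. The 5 lower genes without the block were Fastkd2 (-0.31), Trnt1 (-0.28), Mterf3 (-0.28), Tefm (-0.23) and Fastkd1 (-0.21). Lower with the block only were Pnpt1 (-0.41), Tfb1m (-0.27), Mtpap (-0.26), Slirp (-0.24) and Tfb2m (-0.18). These lower genes, other than the set genes Tefm, Slirp and Tfb2m, were named after their values were seen. The higher genes in both fits, named after their values were seen, were Lonp1, a protease of the mitochondrial matrix (0.41, SE 0.08; limma adjusted p = 0.274), and Mterf2, a factor of the MTERF family (0.22, SE 0.09; limma adjusted p = 0.554). The medians were -0.15 for transcription (8 genes), 0.04 for replication of the DNA (7 genes), -0.09 for RNA processing and stability (15 genes) and -0.02 for nuclear regulators (9 genes). Polrmt, the mitochondrial RNA polymerase, stood at 7.55, 7.63 and 7.78 in hypoxia and at 7.59, 7.58 and 7.65 in normoxia, a log2 fold change of 0.05 (SE 0.09). Tfam, which packs mitochondrial DNA and opens its promoters, stood at 7.25, 7.16 and 7.25 in hypoxia, against 7.41, 7.32 and 7.30 in normoxia, a log2 fold change of -0.12 (SE 0.08). The groups overlapped for Polrmt and not for Tfam.

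The initiation factor Tfb2m had a log2 fold change of -0.18 (SE 0.11) and the elongation factor Tefm one of -0.23 (SE 0.10). Lrpprc and Slirp, which together bind and stabilise mitochondrial mRNAs, had log2 fold changes of -0.09 (SE 0.09) and -0.24 (SE 0.14). Ppargc1a, a coactivator of mitochondrial biogenesis, had one of 0.04 (SE 0.08). The adjusted p from limma of these 5 genes, Polrmt and Tfam lay between 0.570 (Tefm) and 0.872 (Polrmt). With the block it lay between 0.344 (Tefm) and 0.824 (Ppargc1a).

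**Figure D5:**
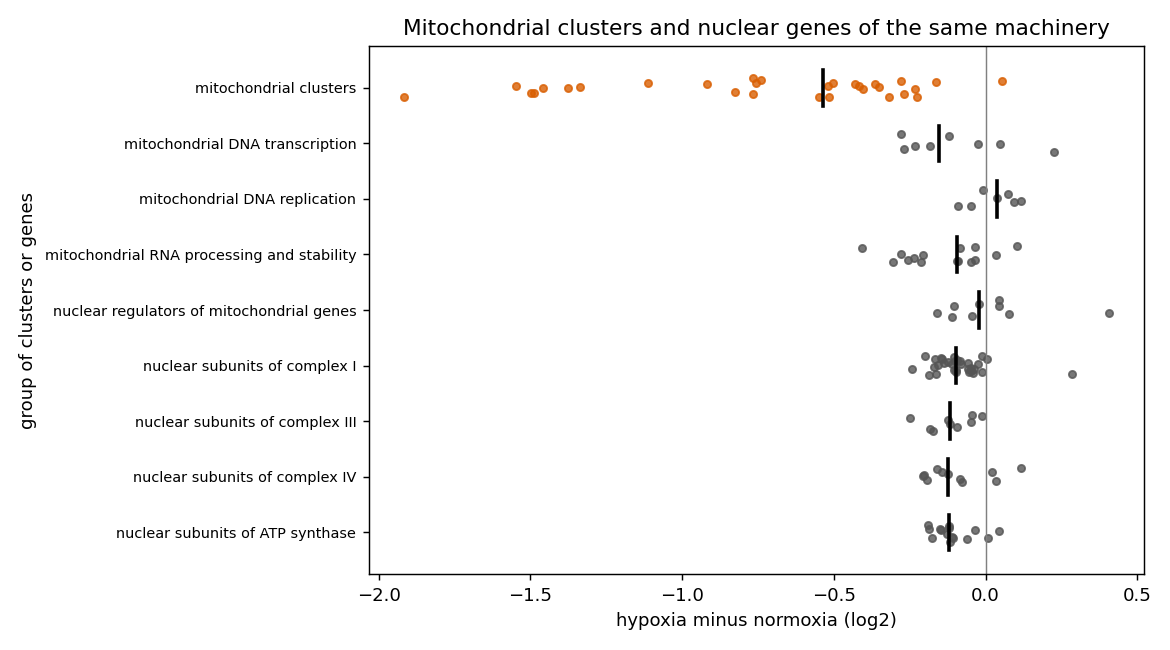
Log2 fold change, hypoxia minus normoxia (horizontal axis), of the 30 mitochondrial clusters (top) and of nuclear genes in 8 lists (vertical axis). Points are clusters or genes and black bars are medians, which are -0.53 for the mitochondrial clusters and between -0.15 and 0.04 for the nuclear lists.

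The microglial gene Csf1r stood at 12.77, 12.81 and 12.71 in hypoxia and 12.67, 12.78 and 12.66 in normoxia. Over 11 microglial markers the summed linear intensity was 53891 to 56690 in hypoxia and 55481 to 56339 in normoxia. Their median log2 fold change was -0.02, and 7 of 11 were below 0 (38.7% of all clusters). That share covers mostly dim clusters, while most of these markers were bright. Clusters outside the mitochondrial chromosome had medians of -0.10 at means of 10 up to 11, -0.13 at 11 up to 12 and -0.11 at 12 up to 13. Hypoxia was lower in each culture for 4 of 11 and higher in each for 1 (13.8% and 23.6% of all clusters). At an adjusted p under 0.05 from limma 0 of 11 passed (0.0106% of all clusters were lower and 0.105% higher). At an unadjusted p under 0.05, 0 were lower without the block and 2 with it, P2ry12 and Tyrobp (4.26% and 6.11% of all clusters). Markers of other cells were measured too. Of 11 fibroblast and pericyte markers, 11 had a higher mean in hypoxia (median 0.41), while 38.7% of all clusters had a lower one. Their summed intensity was 8090, 5005 and 3463 in the hypoxia arrays of cultures 3, 4 and 6, against 6093, 3462 and 2627 in the normoxia arrays. Hypoxia was higher in each of the 3 cultures for 9 of these 11 markers (23.6% of all clusters). At an adjusted p under 0.05 from limma 0 of 11 passed, with or without the block (0.111% and 0.105% of all clusters were higher). At an unadjusted p under 0.05, 0 of 11 were higher without the block and 7 of 11 with it (6.79% of all clusters), namely the collagen genes Col1a1, Col1a2 and Col3a1 together with Fn1, Acta2, Pdgfrb and Dcn. Culture 6, with the largest mitochondrial differences, thus had the lowest sum of these markers, and their part in the mitochondrial result was not tested. Medians were 0.13 for 7 astrocyte, 0.11 for 8 endothelial, 0.06 for 7 oligodendrocyte lineage and 0.08 for 8 neuron markers. In the same order, 0, 0, 0 and 1 of these markers had a lower mean in hypoxia, and with the block 1, 3, 1 and 1 were higher at an unadjusted p under 0.05 from limma (6.79% of all clusters). Most markers of these lists were dim. Other clusters had medians of 0.06 at means of 4 up to 6 and 0.03 at 6 up to 8. Higher means thus occurred in all these lists, with the largest median for fibroblast and pericyte markers. In whole cultures, fewer mitochondria or mitochondrial genomes per cell, fewer transcripts of each and a shift in the cells present cannot be told apart.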

How the data were processed

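The authors deposited log2 intensities of 6 one-colour arrays, normalized by RMA. The submitters' processing notes also name Affymetrix Expression Console, limma and the build mm10 (GRCm38), without versions. Of 72688 rows, 65770 are transcript clusters and were tested, and 6918 other rows were set aside. In the annotation of the array 30638 rows have 1 gene symbol, 2176 several and 39874 none. Symbols were updated through the GRCm38 annotation, mitochondrial genes were matched by explicit name, and of 116 nuclear genes on the lists 106 had a cluster, the brightest of each being used.

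Hypoxia was compared with normoxia with limma 3.58.1 (lmFit, eBayes) in R 4.3.3, with Benjamini-Hochberg adjustment over all transcript clusters and a threshold of 0.05, without a block because the submitters name none. Every adjusted p is from this limma fit or, where stated, from the one with the culture as a block. The labels place both arrays of a culture together. After subtracting group means, the arrays of cultures 3, 4 and 6 correlated with their partners at 0.40, 0.36 and 0.17 over all transcript clusters, and other pairs at -0.39 to 0.06. With the shared pups, this pairs the arrays by culture. Over the 30 mitochondrial clusters alone these correlations were 0.08, -0.14 and -0.15, and -0.52 to 0.40 for other pairs, so the members do not show the pairing by themselves. Arrays of 1 group correlated at 0.987 to 0.993, and their number limits the precision. The script was tested on simulated data. Array by array the text gives the clusters with rRNA or protein-coding genes, those past the threshold in either fit and the 3 largest differences in each direction, and of the nuclear lists the genes past the threshold and 7 set genes. Alternatives were other normalizations, a filter on dim clusters, other sets of features, array weights, an intensity trend, the block and leaving out each array. The members and lists were chosen with earlier results of these data known. No sequence is printed, since the reference tables used here hold none of the mitochondrial chromosome.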

Additional observations from a re-analysis of the deposited data

How the results depend on the processing

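The median of the mitochondrial clusters was negative under every alternative run, between -0.69 and -0.35, while the number passing the limma test varied. Lower clusters numbered 3 in the fit without a block. The count was 2 after cyclic loess, quantile normalization or centring on the median, 3 without dim clusters, 1 with the replicate block, 1 over all 72688 rows and 1 over 1 cluster per gene, where only 7 mitochondrial clusters were tested. It was 12 with array weights and 5 with an intensity trend and robust variances. The weights were lowest for the hypoxia arrays of culture 3 (0.425) and culture 6 (0.584). Without 1 array it was 1 to 3, and with the replicate block and without 1 culture 0 to 7. With the replicate block after cyclic loess it was 1. No mitochondrial cluster was higher in any of these fits (0 at an adjusted p under 0.05 from limma, and 0 unadjusted in the fits with and without the block).

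Over all transcript clusters 69 were higher and 7 lower. These counts were 40 and 2 over all rows of the table, 129 and 27 with array weights, 28 to 36 and 1 to 13 without 1 array, and 20 to 89 and 2 to 14 with the replicate block and without 1 culture. The lower count was 2 with the replicate block after cyclic loess. TC0M00000029 changed sign without hypoxia replicate 2 (-0.056, in a range of -0.056 to 0.17 without 1 array) and with the replicate block without culture 4 (-0.082), and TC0M00000015 with the replicate block without culture 6 (0.030). The fits that leave out a culture, or join the block with cyclic loess, were chosen after the data were seen.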
